A study of Mus musculus with 2 samples.

Results

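The genes described here are 9 members of the TNF receptor superfamily: Tnfrsf9, Tnfrsf4, Tnfrsf18, Cd27, Tnfrsf14, Tnfrsf1b, Tnfrsf1a, Tnfrsf25 and Fas. They were chosen by name, as all gene spots on the arrays that carry one of these gene names, which gave 41 of 43379 gene spots and 9 of 27597 gene names. The 41 spots belong to 14 probes, since Fas, Tnfrsf1a and Tnfrsf1b each have a probe printed 10 times per array. Their mRNA levels in naive Bcl11b-deficient CD8+ T cells were set against those in wild-type cells. Bcl11b is a zinc-finger transcription factor that T cells need for their development and identity.

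The knockout group consisted of sorted CD8+ T cells with low CD44 and low CD25 from Bcl11bF/F/dLck-iCre mice. These mice carry floxed Bcl11b alleles and an iCre recombinase under the distal Lck promoter, which becomes active late in thymic development, so the deletion is limited to cells that have used that promoter. The control group consisted of wild-type cells sorted the same way. The labels give the C57BL/6 background for both genotypes and a sort purity of over 90%, but neither the age of the mice nor the number of mice behind each sample. Knockout RNA was labelled with Cy5 and wild-type RNA with Cy3 on both of the 2 two-colour arrays, so the comparison is a group of 2 ratios. The labels name them biological replicates. With the dyes the same way round on both arrays, an effect of dye on a gene and an effect of the knockout cannot be told apart.

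TNF receptors are cell surface proteins that bind trimeric ligands of the TNF superfamily. A first class, here Tnfrsf9, Tnfrsf4, Tnfrsf18, Cd27, Tnfrsf14 and Tnfrsf1b, binds TRAF adaptors, which feed NF-kappaB signalling and give T cells costimulation and survival signals. A second class, here Tnfrsf1a, Tnfrsf25 and Fas, carries a cytoplasmic death domain that recruits TRADD or FADD and can start caspase-dependent death. In naive CD8+ T cells Cd27 is present before activation, whereas Tnfrsf9 and Tnfrsf4 are known mainly as receptors induced by T cell receptor stimulation.

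A probe was used where the scanner software called 1 genotype, the same on both arrays, well above background. All 9 genes had such a probe, as had 9273 genes in all, and 10 of the 14 probes qualified. Tnfrsf9 was the only one of the 9 genes to pass the test across all genes, higher in the knockout (limma, Benjamini-Hochberg adjusted p under 0.05). Its probe met the filter through the knockout alone, so its call rests on a wild-type signal not called above background. With both channels required it was not tested, and with no filter on dim probes it did not pass (limma adjusted p = 0.457). Across all genes 1.49% passed, 115 higher (1.24%) and 23 lower (0.248%) in the knockout. With median centring instead of loess 63 were higher and 1 was lower, but there the median of all genes was 0.68, while the test was still against 0. Of the 9 genes 5 were above 0 on both arrays (30.9% of all genes), 1 was below 0 on both (30.8%) and 3 had opposite signs (38.2%). The median of their mean log2 ratios was 0.30, beside 0.04 over all genes measured. Of the 9 genes 6 differed by less than 2-fold on each array (71.6% of all genes), and the others were Tnfrsf9, Tnfrsf4 and Fas. Only Tnfrsf9 was more than 2-fold higher on both arrays (1.12% of all genes), and none of the 9 was more than 2-fold lower on both (0.226%). The fit gave all genes the same standard error of 0.50 on the log2 scale, so a mean ratio had a 95% interval of ± 0.97 and a mean ratio had to reach 1.68 in size to pass. A permutation of 2 ratios by exchange of sign cannot give a two-sided p below 0.5, so an exact test of a single gene cannot reach the threshold here.

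Both arrays had a high unspecific signal. Negative control spots had medians of 985 and 1865 in the knockout channel of arrays 1 and 2, and of 1087 and 1120 in the wild-type channel. Signals below are mean spot intensities in the scanner's units with this background included, and Cy5 signals were the higher ones for most probes, with a median knockout over wild-type ratio of 2.25 on array 1 and 1.94 on array 2 before normalisation. Only the log2 ratios are corrected for this. Array 1 had a wider spread of log2 ratios (SD 1.01 over all genes) than array 2 (SD 0.41). Bcl11b itself, by the brighter of 2 probes, was at -1.45 and -1.73 (mean -1.59 ± 0.19, SD, n = 2; limma adjusted p = 0.075), and the other probe gave -0.35 and -2.32. The probes were not placed against the floxed exon, so they do not check the deletion.

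**Figure D1:**
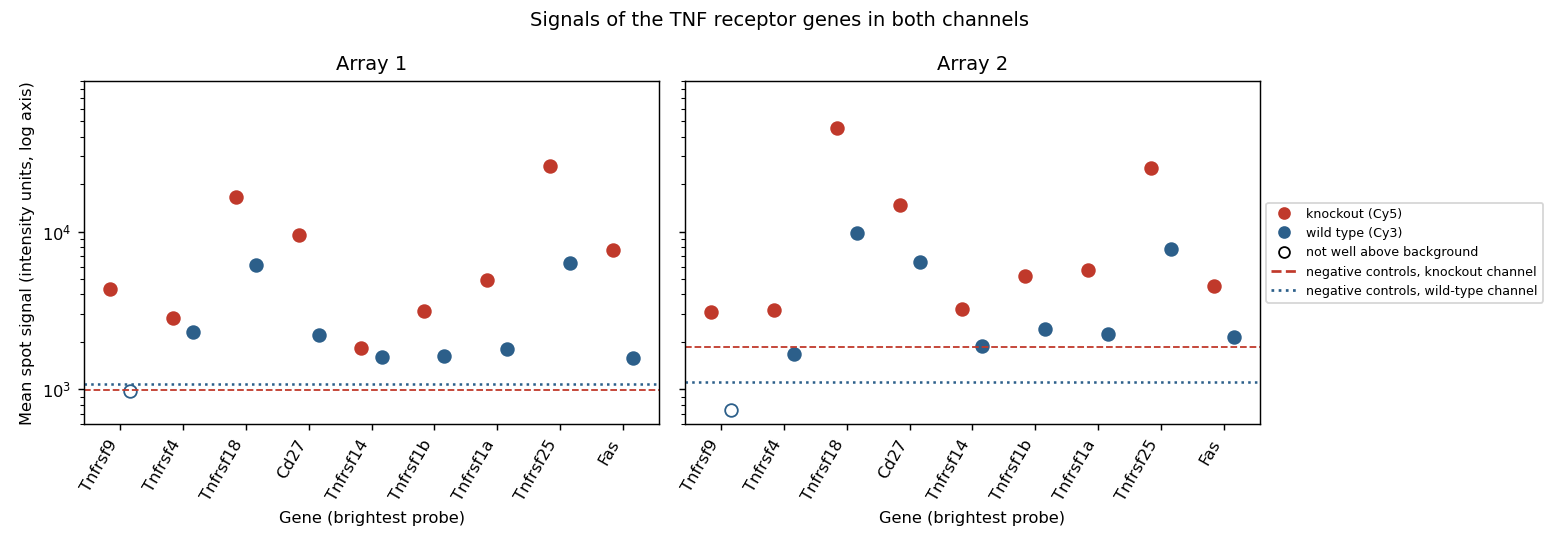
Mean spot signal (intensity units, log axis) of the brightest probe of each of the 9 genes on arrays 1 and 2, knockout (Cy5) left of wild type (Cy3), with the medians of the negative controls as lines. The wild-type signal of Tnfrsf9 (972 and 736) lay under the negative controls on both arrays (open circles mark signals not well above background), and levels of different genes are not comparable because their probes differ.

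Tnfrsf9 encodes 4-1BB, a costimulatory receptor that activated CD8+ T cells display and that binds Tnfsf9 on antigen-presenting cells. By its brighter probe, Tnfrsf9 had signals of 4299 and 3116 in the knockout on arrays 1 and 2, against 972 and 736 in wild type. The knockout signals were 4.36 and 1.67 times the negative control median of their channel, while those of wild type were 0.894 and 0.657 times theirs. Neither probe lifted wild type well above background on any array. The log2 ratios were 2.27 and 3.04 (mean 2.66 ± 0.55, SD, n = 2; limma adjusted p = 5.27e-05), with the wild-type side under the background call. Because wild type gives only a bound, the mean normalised signal of the knockout was set against a wild-type bound of 9.65 on the log2 scale. The knockout was at 11.03, with 8.37 measured in wild type. Under this processing, with average intensities also quantile-normalised between the arrays, the knockout was 2.61-fold above the bound. That figure allows for no error in the knockout signal and is not a minimum over probes or settings. The wild-type bound is open to dye bias. On each array it stands at the dimmest signal still called above background, or at the wild-type signal itself if that was brighter.

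The size of the Tnfrsf9 difference depended on the probe and on the handling of background. A second, dimmer probe had signals of 1560 and 1990 in the knockout, against 890 and 979 in wild type, and log2 ratios of 1.70 and 0.67. Only the knockout on array 1 was called well above background by that probe. The probes lie on chromosome 4 of mm8, from 149788797 to 149788856 and from 149789243 to 149789302, both on the plus strand. The ratio of the brighter probe was 1.27 with no background correction (adjusted p = 0.0709), 3.91 after subtraction of the negative controls (chosen after seeing the data) and 4.57 in the scanner's own log ratio (adjusted p = 0.453, limma). The sign was positive in each of the 10 settings that gave a value, and the test was passed in 5 of them. Each setting reprocessed the same spots, with wild type not called above background, so the constant sign gives no separate support.

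RefSeq lists 2 transcription starts for Tnfrsf9, 7844 bases apart, and the 250 bases before each are shown because this is the gene that rose. The window of Fas is set beside them because Fas and Tnfrsf9 were the only ones of the 9 genes with a window that held both of the motifs described next. The motifs were an NF-kappaB-type run, GGG and CC with any 5 bases between, and an AP-1-type run, TGANTCA, on either strand, and matches are in capitals (RefSeq sequences, GRCm38.p6, plus strand, on which both genes lie, 5′ to 3′).
Tnfrsf9, upstream start, chr4:150919905-150920154: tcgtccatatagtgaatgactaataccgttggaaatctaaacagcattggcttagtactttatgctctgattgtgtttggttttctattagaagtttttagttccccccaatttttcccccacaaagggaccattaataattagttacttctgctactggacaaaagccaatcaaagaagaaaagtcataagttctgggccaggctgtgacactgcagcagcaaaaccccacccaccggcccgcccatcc
Tnfrsf9, downstream start, chr4:150927749-150927998: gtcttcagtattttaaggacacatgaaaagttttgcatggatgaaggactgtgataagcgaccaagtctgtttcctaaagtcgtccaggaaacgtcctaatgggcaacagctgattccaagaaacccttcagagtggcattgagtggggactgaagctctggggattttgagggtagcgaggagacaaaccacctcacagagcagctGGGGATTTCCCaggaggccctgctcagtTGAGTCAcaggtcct
Fas, chr19:34290409-34290658: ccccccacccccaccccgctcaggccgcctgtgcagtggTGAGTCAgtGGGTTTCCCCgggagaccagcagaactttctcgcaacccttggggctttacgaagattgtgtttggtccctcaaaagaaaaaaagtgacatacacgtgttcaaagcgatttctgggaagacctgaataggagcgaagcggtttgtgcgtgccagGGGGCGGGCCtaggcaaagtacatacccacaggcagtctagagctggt
The window before the downstream Tnfrsf9 start held TGAGTCA 15 bases before that start and the run GGGGATTTCCC, which contains overlapping NF-kappaB-type matches that begin 43 and 42 bases before it. The Fas window held TGAGTCA 211 bases and GGGTTTCCCC 202 bases before the start, with a further NF-kappaB-type match, GGGGCGGGCC, 48 bases before it that overlaps a GC box (GGGCGG). The window before the upstream Tnfrsf9 start held neither of the pair. Over all 32851 RefSeq windows of this length, 45.8% held the NF-kappaB-type run, 6.75% the AP-1-type run and 2.38% both. Of the 11 windows of the 9 genes 8 held the NF-kappaB-type run and 2 the AP-1-type run. By gene, Tnfrsf4 and Tnfrsf18 were those without the NF-kappaB-type run. These matches describe letters only, and the arrays measured no binding.

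**Figure D2:**
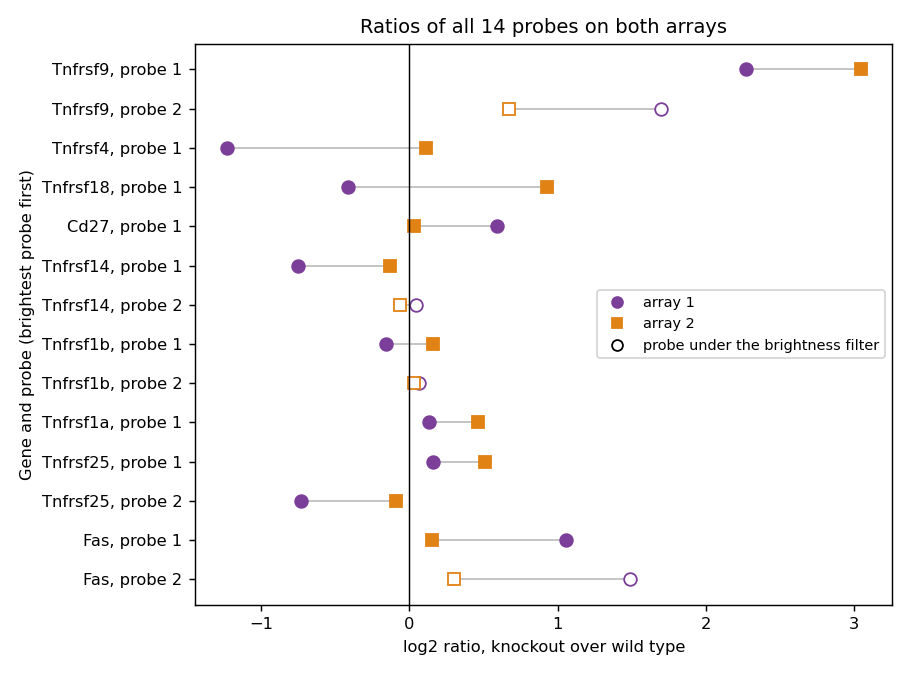
Log2 ratio of knockout over wild type for all 14 probes of the 9 genes on array 1 (circles) and array 2 (squares), with open symbols for the 4 probes that did not meet the brightness filter. Tnfrsf9 probe 1 stands apart at 2.27 and 3.04, and the probes of Tnfrsf25 fall on opposite sides of 0.

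Tnfrsf4 (OX40) and Tnfrsf18 (GITR) are costimulatory receptors of activated T cells, and in mice regulatory T cells carry both. Their genes are direct neighbours on chromosome 4, with no protein-coding gene between them in the RefSeq annotation. Tnfrsf4 had signals of 2845 and 3165 in the knockout, against 2314 and 1666 in wild type. After normalisation its log2 ratios were -1.23 on array 1 and 0.11 on array 2 (mean -0.56 ± 0.95, SD, n = 2; limma adjusted p = 0.856), so the arrays disagreed in sign. Tnfrsf18 had 16673 and 45453 in the knockout, against 6101 and 9862 in wild type. Its log2 ratios were -0.41 and 0.93 (mean 0.26 ± 0.95, SD, n = 2; limma adjusted p = 0.945). In both neighbours array 2 gave the higher ratio, by 1.34 each, a gap wider than that of 85.4% of all genes for Tnfrsf4 and 85.5% for Tnfrsf18. Without array 1 the value of Tnfrsf4 is 0.11 and that of Tnfrsf18 0.93. The probe of Tnfrsf4 lies from 154860326 to 154860385 and that of Tnfrsf18 from 154872540 to 154872599, both on the plus strand of mm8 chromosome 4. With median centring, which raised the median of all genes to 0.68, the mean of Tnfrsf4 turned to 0.08, which is -0.60 relative to that median.

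Cd27 encodes a receptor for CD70 that naive T cells already carry and that sustains the survival of CD8+ T cells after priming. Cd27 signals were 9501 and 14761 in the knockout, against 2225 and 6430 in wild type, all 4 of them well above background. The log2 ratios were 0.59 and 0.03 (mean 0.31 ± 0.39, SD, n = 2; limma adjusted p = 0.933), with a 95% interval of the mean from -0.66 to 1.29. A difference inside that interval was not resolved by these arrays. The single Cd27 probe is on mm8 chromosome 6, from 125198677 to 125198736, minus strand.

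Tnfrsf14 (HVEM) binds the TNF family ligand Tnfsf14 (LIGHT) and, across families, the immunoglobulin-type receptors Btla and Cd160. By the brighter of its probes it had 1819 and 3232 in the knockout, against 1612 and 1876 in wild type, and log2 ratios of -0.75 and -0.13 (mean -0.44 ± 0.44, SD, n = 2; limma adjusted p = 0.912). It was the only one of the 9 genes below 0 on both arrays. A second probe, which overlaps it at its end, was near the negative controls in both channels (1181 and 2070 in the knockout, against 1166 and 1270 in wild type) and gave 0.05 and -0.06. Both lie on the minus strand of mm8 chromosome 4, from 153765965 to 153766024 and from 153766018 to 153766077.

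Tnfrsf1b encodes TNFR2, the TNF receptor without a death domain that promotes the survival and expansion of T cells. Its 10-fold repeated probe averaged 3124 and 5204 in the knockout, against 1634 and 2426 in wild type. The log2 ratios were -0.16 and 0.16, and their mean was 0.00 (0.0017 ± 0.23, SD, n = 2; limma adjusted p = 0.999, 95% interval from -0.97 to 0.98). Without array 1 the value was 0.16 and without array 2 it was -0.16. On array 1, 9 of 10 spots were below 0, and on array 2 all 9 unflagged spots were above 0. A second Tnfrsf1b probe was not well above background in either genotype on either array. The probe used lies from 144481088 to 144481147 on the minus strand of mm8 chromosome 4.

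**Figure D3:**
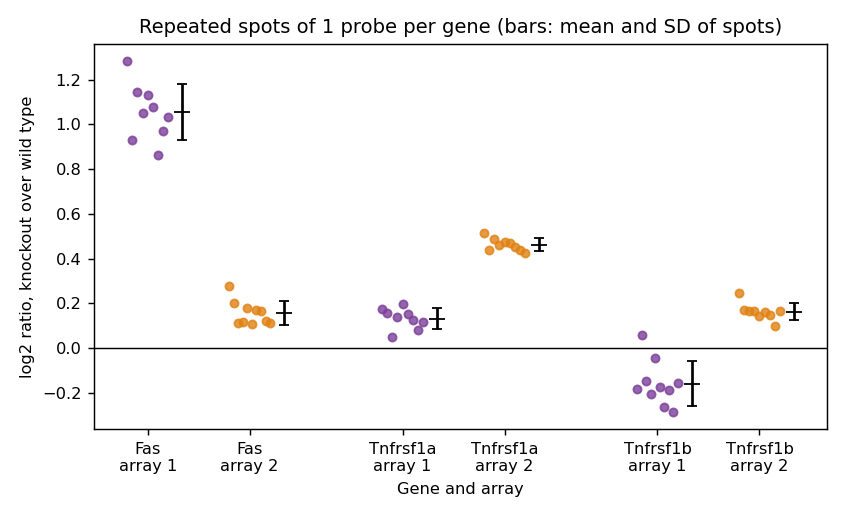
Log2 ratio of knockout over wild type at each repeated spot of Fas, Tnfrsf1a and Tnfrsf1b on arrays 1 and 2, with the mean and SD of the unflagged spots (9 or 10 per array). The means of the arrays lie farther apart than the SD between spots for each of the 3 genes, and Fas spots lie from 0.86 to 1.28 on array 1 and from 0.11 to 0.28 on array 2.

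Of the death domain receptors, Tnfrsf1a encodes TNFR1, which recruits TRADD and drives most inflammatory responses to TNF. Its repeated probe averaged 4946 and 5711 in the knockout, against 1815 and 2259 in wild type. The log2 ratios were 0.13 and 0.46 (mean 0.30 ± 0.23, SD, n = 2; limma adjusted p = 0.934). Every unflagged spot was above 0 on both arrays, from 0.05 to 0.20 on array 1 and from 0.42 to 0.52 on array 2. The probe is on the plus strand of mm8 chromosome 6, from 125327977 to 125328036, and in the RefSeq annotation 3 protein-coding genes separate Tnfrsf1a from Cd27.

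Tnfrsf25 (DR3) is the death domain receptor for Tnfsf15 and acts as a costimulator on T cells. By its brighter probe it had 25892 and 25419 in the knockout, against 6365 and 7758 in wild type, with log2 ratios of 0.16 and 0.51 (mean 0.34 ± 0.24, SD, n = 2; limma adjusted p = 0.927). A second Tnfrsf25 probe, which also met the filter, had 1393 and 2770 in the knockout, against 1508 and 1625 in wild type. It gave -0.73 and -0.09, the opposite sign on both arrays, and the mean of the 2 probes was -0.04. The probes lie on the plus strand of mm8 chromosome 4, the brighter from 150963847 to 150963906 and the dimmer from 150960446 to 150960505. Transcript structure was not used here, so whether the probes report the same transcripts was not tested.

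Fas encodes the death receptor CD95, which binds Fas ligand and recruits FADD and caspase-8. Its repeated probe averaged 7612 and 4496 in the knockout, against 1592 and 2158 in wild type. The log2 ratios were 1.05 and 0.16 (mean 0.60 ± 0.64, SD, n = 2; limma adjusted p = 0.833), the second highest mean of the 9 genes and rank 1822 of 9273. On array 1 the 9 unflagged Fas spots averaged 1.05 ± 0.13 and on array 2 the 10 spots averaged 0.16 ± 0.05 (SD between spots of the same RNA). A second Fas probe, too dim for the filter and above background only in the knockout on array 1, gave 1.49 and 0.31, again higher on array 1. The repeated probe is on the plus strand of mm8 chromosome 19, from 34393409 to 34393468, and the second from 34375240 to 34375299.

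The repeated spots separate 2 sources of spread. For Fas, Tnfrsf1a and Tnfrsf1b the SD between spots of an array was 0.13, 0.05 and 0.10 on array 1, and 0.05, 0.03 and 0.04 on array 2. The gaps between the arrays were 0.90, 0.33 and 0.32, wider than the spot SD in each case. The same held for 80 of the 85 measured probes with at least 8 spots, whose median spot SD was 0.09 on array 1 and 0.05 on array 2 beside a median gap of 0.55. Spots share their RNA, labelling and array, so they give no test between genotypes.

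**Figure D4:**
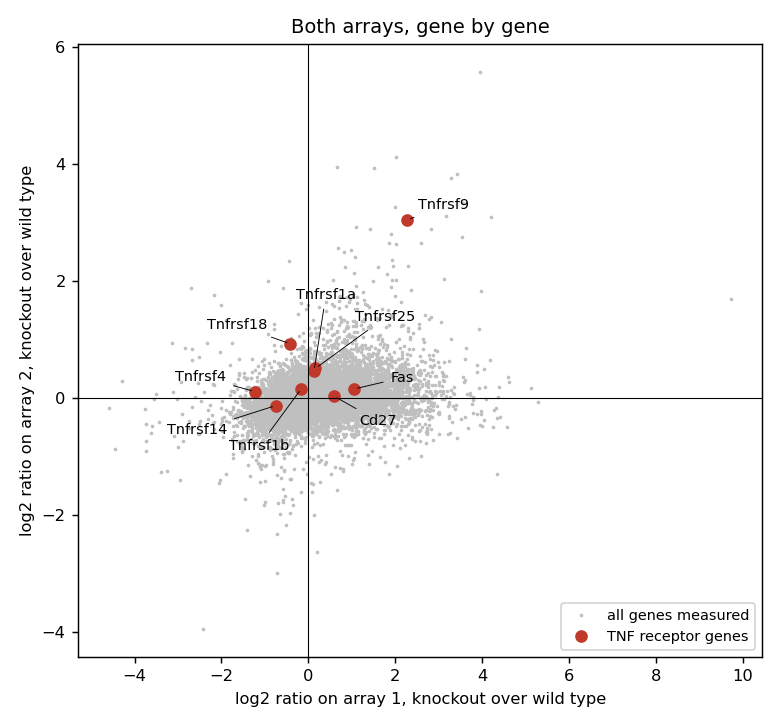
Log2 ratio of knockout over wild type on array 1 (x axis) and array 2 (y axis) for 9273 genes (grey) and the 9 TNF receptor genes (red). Tnfrsf9 lies in the upper right at 2.27 and 3.04, and the other 8 lie within 1.23 of 0 on array 1 and within 0.93 of 0 on array 2.

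Other receptors of the superfamily were mostly dim. Of 19 on the arrays 5 were measured, and none passed (2, Tnfrsf12a and Tnfrsf26, had an unadjusted limma p under 0.05; median of the mean log2 ratios -0.01). Tnfrsf12a, the receptor for TWEAK, was at -2.60 and 0.02, so its mean rests on array 1. Ltbr, the lymphotoxin beta receptor that lymphocytes lack, and Cd40, a receptor of B cells and antigen-presenting cells, were not well above background in either genotype on either array. Tnfrsf26 was at 2.30 and 0.58, with signals of 3159 and 3609 in the knockout. Wild type was well above background only on array 2. Tnfrsf13c (the BAFF receptor) was at 0.69 and 0.20, and Tnfrsf10b, the mouse TRAIL receptor, at -0.62 and -0.23. For Tnfrsf13c too, wild type was well above background only on array 2, and for Tnfrsf10b the knockout only on array 1.

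Ligands and partners of the receptors were covered by 19 genes, of which 9 were measured, 1 rose and 8 did not pass (Tnfsf8 and Cd160 had an unadjusted limma p under 0.05; median 0.31). The 1 that passed was Tnfsf8, the ligand of CD30, at 3.72 on array 1 and 0.06 on array 2 (mean 1.89 ± 2.59, SD, n = 2; limma adjusted p = 0.0165). On array 1 its signal was 4826 in the knockout, against 809 in wild type, which was not above background there, and without array 1 its value was 0.06. The ligands Tnfsf9, Tnfsf4, Tnfsf18, Cd70 and Tnfsf15, which pair with Tnfrsf9, Tnfrsf4, Tnfrsf18, Cd27 and Tnfrsf25, did not meet the brightness filter.

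Partners of the other receptors, named for their pairing and not by the naming rule, were measured. Tnf was at -0.22 and 0.15, Lta at 0.25 and 0.47 and Fasl at -0.08 and 0.11. On array 1 the wild-type signal of Fasl was not called above background (1213 in the knockout, against 1223 in wild type). Tnfsf14, the TNF family ligand of Tnfrsf14, was at -0.12 and 0.88. Of the other Tnfrsf14 partners, the inhibitory receptor gene Btla was at 0.45 and -0.30. Cd160 was not well above background in wild type, and its knockout signal was 2.09-fold above a wild-type bound set as for Tnfrsf9. It did not pass (limma adjusted p = 0.127), so this figure is not a firm minimum. Cd160 passed with negative controls subtracted, an alternative chosen after seeing the data.

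Downstream of the receptors, no gene passed among 16 measured of 17 TRAF and death domain adaptors (median 0.09) or among 15 measured of 19 NF-kappaB pathway genes (median 0.13), and none in either list had an unadjusted limma p under 0.05. Traf5, an adaptor of OX40 and CD27 signalling, was at -1.06 and -0.73 (mean -0.89 ± 0.23, SD, n = 2; limma adjusted p = 0.593), with signals of 5825 and 5387 in the knockout, against 3577 and 4027 in wild type. Traf3 was at 0.94 and 0.19. The death domain adaptor genes Tradd and Fadd were at 0.62 and 0.23 and at 0.77 and 0.11. Of the NF-kappaB genes, Nfkbie, an inhibitor of NF-kappaB, was at 1.26 and 0.64, Nfkb1 at 0.92 and 0.52, Tab2 at 1.55 and 0.19 and Tab1 at -1.30 and -0.34. Array 1 gave the value farther from 0 for each of the 8 genes named here. For Fadd and Tab2 the wild-type signal on array 1 was not called above background.

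Markers of other cells were read in the same libraries, since in bulk RNA a change in cell make-up and a change in RNA per cell cannot be told apart. All 8 markers of naive CD8+ T cells were well above background in all 4 channels, Cd8a with signals of 69037 and 56683 in the knockout, against 10368 and 25646 in wild type. The summed signals of the marker lists carry the uncorrected difference between the dyes, and for the naive CD8+ markers themselves they were 728596 and 657671 in the knockout, against 104093 and 179409 in wild type. The channels also differed in detection, which bears on the counts of every marker list. Over all gene spots 39.8% and 25.3% were well above background in the knockout on arrays 1 and 2, against 24.8% and 31% in wild type. Of 8 NK cell markers all 8 were well above background in both knockout channels, against 4 and 5 in wild type, and 3 rose (Fcer1g, Klrb1c and Tyrobp). The other 5 did not pass. Ncr1 was at -0.20 and 0.86, Klra8 at 0.02 and 0.33, Eomes at 0.63 and 0.74, Gzma at 0.72 and 0.80 and Il2rb at 0.54 and 1.08. The summed NK signal was 85910 and 312361 in the knockout, against 17898 and 36108 in wild type. Its largest part was Il2rb, which did not pass, with 50121 and 134485 in the knockout, against 9086 and 22896 in wild type. Of 8 myeloid markers 6 and 5 were well above background in the knockout, against 1 and 3 in wild type, and 4 of 6 measured rose (Csf1r, Adgre1, Lyz2 and Itgax). Those 4 met the brightness filter through the knockout alone. Cd14, which met it through wild type alone, was at -0.40 and -0.08 and did not pass. Fcgr3 was at 0.81 and 2.50 and did not pass either (limma adjusted p = 0.0553). The summed myeloid signal was 22733 and 44512 in the knockout, against 8699 and 14782 in wild type. Itgam and Cd68 were not well above background in either genotype. The ratios of Lyz2 were 4.03 and -0.38, so its call rests on array 1. Among the NK and myeloid markers that rose, only Tyrobp had a wild-type signal called above background on both arrays. The NK and myeloid markers that passed did so in the same direction as Tnfrsf9, and their part in its difference was not tested.

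The 8 markers of CD4+ and regulatory T cells were chosen because such cells carry Tnfrsf4, Tnfrsf18 and Tnfrsf9. The sort had selected for low CD25, the product of Il2ra. Foxp3, Il2ra, Ctla4 and Izumo1r were not well above background in either genotype on either array, and Cd4 was at -0.65 and -0.21. The knockout signal of Cd4 was not called above background on array 2. Ikzf2, which is also found in other T cells, passed as higher in the knockout (limma adjusted p = 0.0418), by a probe whose wild-type signal was not called above background on either array, so no size is given. Summed over the 7 of these genes on the arrays, the signal was 11676 and 15656 in the knockout, against 7064 and 7793 in wild type. Of 8 B cell markers 5 were measured and none passed (1 unadjusted, limma), with 6 and 4 well above background in the knockout and 3 and 5 in wild type, and a summed signal of 159554 and 176434 in the knockout, against 49953 and 61264 in wild type. Most of the B cell sum was Ighm, with 144150 and 155726 in the knockout, against 40131 and 49859 in wild type, and its log2 ratios were -0.22 and 0.08. The median of the mean log2 ratios of the B cell list was -0.07.

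**Figure D5:**
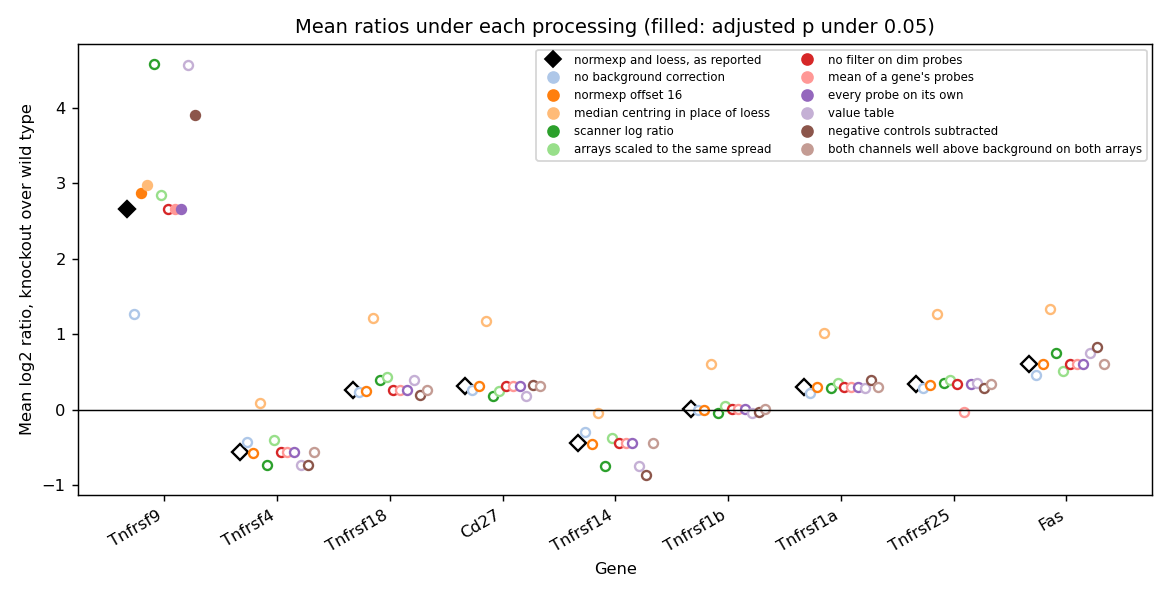
Mean log2 ratio of knockout over wild type of each gene under the reported processing (diamonds) and 11 alternatives (circles), filled where the adjusted p was under 0.05. Tnfrsf9 stays above 0 throughout, from 1.27 to 4.57, and no other gene has a filled symbol. Median centring sets all 9 genes higher than the reported processing does, and also the median of all genes (0.68 against 0.04).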

How the data were processed

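RNA of sorted CD8+ T cells was measured on 2 two-colour Agilent arrays. The authors' deposited scanner files give linear intensity values (mean spot signal and median local background per channel, not normalised) and log10 ratios of Cy5 over Cy3 made by Agilent Feature Extraction 9.5.3.1, per the file headers and the submitters' processing notes. RNA was linearly amplified and chemically labelled, per the labels' protocols. A deposited value table repeats these log10 ratios to within 0.005 (column medians 0 and 0), which settles its direction.

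Ratios were computed from the intensities in R 4.3.3 (limma 3.58.1) by normexp (offset 50), loess within arrays, control and flagged spots at weight 0 and then left out, spots of a probe averaged. For the wild-type bounds of Tnfrsf9 and Cd160, average intensities were also quantile-normalised between the arrays, a step that leaves the ratios unchanged. Probes needed 1 channel, the same on both arrays, well above background in at least 0.5 of the unflagged spots, and each gene took its brightest such probe. Names came from RefSeq GRCm38.p6 accessions (24375 of 41174 probes), current symbols (6301) or older symbols (2426), and 8072 kept the file's name. The mean ratio was tested against 0 (lmFit and eBayes), with two-sided p-values adjusted by Benjamini-Hochberg over 9273 genes. The prior degrees of freedom were infinite. The arrays shared slide and scan session. The number of arrays limits the precision. Under the reported processing all genes shared the same standard error, pooled over the spread of all genes between these arrays. A gene's p-value there followed its mean ratio and not its own spread between the arrays.

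The 9 genes, Bcl11b and up to 4 genes per list (passing genes by size, otherwise genes with 1 sign on both arrays by the smaller ratio) are named. The genes and lists were chosen with earlier results of these data known. Probe coordinates are mm8, per the file headers, and exons were not assigned.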

Additional observations from a re-analysis of the deposited data

How the results depend on the processing

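Tnfrsf9 kept its direction in all alternatives that gave a value, and in each single array (2.27 and 3.04). The alternatives reprocess the same spots, with wild type not called above background, so this gives no separate support. Tnfrsf9 passed with normexp offset 16, median centring (2.97, or 2.29 relative to the median of all genes), the mean of a gene's probes, each probe on its own and, added after seeing the data, negative controls subtracted. It did not pass with no background correction (1.27, adjusted p = 0.0709), the scanner log ratio (4.57, 0.453), the value table (4.57, 0.466), arrays scaled to the same spread (2.84, 0.38) or no filter on dim probes (2.66, 0.457), and with both channels required above background it was not tested, so the number of TNF receptor genes past the threshold was 0 in these 6 settings (limma; 1 with an unadjusted p under 0.05 in each but the last, which had 0). The cause was not tested. The other 8 genes did not pass in any setting. Signs turned for Tnfrsf4 with median centring (0.0833), for Tnfrsf25 with the mean of its probes (-0.0365) and for Tnfrsf1b with no background correction (-0.0077), offset 16 (-0.0038), the scanner log ratio (-0.0426), the value table (-0.0427) and negative controls subtracted (-0.0304).

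Over all genes the count past the threshold was 138, with 35 for no background correction, 64 for median centring, 39 for both channels required, 31 for each probe on its own (11833 probes) and 51 for negative controls subtracted. It was 0 for the scanner log ratio (568 with an unadjusted p under 0.05), the value table (563), scaled arrays (901) and no filter (2478). There the prior degrees of freedom were 4.15, 4.12, 4.89 and 1.96 and no longer infinite. The pathway lists together had 1 gene past the threshold, Tnfsf8, and 0 with no background correction, median centring, the scanner log ratio, scaled arrays, no filter, both channels required, each probe on its own and the value table (2 to 10 unadjusted). With negative controls subtracted Tnfsf8 lost its call and the 1 gene that passed was Cd160. With 1 array left out there is no test. No separate paired analysis was run, because each ratio already pairs a knockout with a wild-type sample on the same array and the test uses these ratios.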
